A study of Homo sapiens with 26 samples.

Results

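mRNA levels in cells without LARP4 were read from the RNA-seq total inputs, the RNA of whole lysates taken before any streptavidin pulldown. The comparison holds 4 of the series' 26 libraries, 2 of LARP4 null cells and 2 of wild-type (WT) cells, chosen by their labels alone. All are HEK293T cells, a human embryonic kidney line, with RPL29 carrying the Avi tag at its endogenous gene and with LOV-BirA, a biotin ligase switched on by blue light, fused to the OMP25 transmembrane domain at the outer mitochondrial membrane (OMM) and expressed from the EF1α promoter. The WT cells carried a negative control gRNA. The LARP4 null cells are 1 monoclonal line made with Cas9 and a gRNA against LARP4, so the effect of the genotype and the particular state of that clone cannot be told apart. Cycloheximide (CHX), which halts translation elongation, was given with biotin and a 10 min light pulse to the WT cells, and for the LARP4 null cells CHX is taken from the study's general protocol. The total inputs of AKAP1 null cells (2 libraries) and of WT cells without CHX (1 library, 1 min of light) are quoted as further reference levels and entered no test unless said so. Nothing in the sources used here says that the replicates are separate cultures. The tests therefore measure the spread between these libraries, the source of which was not tested. Within each group the libraries differed along stretches of chromosomes, as given below.

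LARP4 is a member of the La-related protein family that binds poly(A) tails and the cytoplasmic poly(A) binding protein PABPC1, and it is known for protecting mRNA tails from shortening by deadenylases. The mRNAs of ribosomal proteins belong to the TOP class, whose start with a pyrimidine tract lets translation and stability be controlled together, and they are among the mRNAs that LARP4 has been connected with. LARP4 also meets the OMM through AKAP1, a scaffold protein that gathers kinases and mRNAs there, which is why nuclear-encoded mitochondrial mRNAs are of interest in these cells. RNA-seq counts report the amount of an mRNA and not the length of its tail.

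The stretch of LARP4 that the guide was designed against shows which part of the gene was targeted. It lies in exon 5 of the 16 exons of the reference transcript, within the coding sequence, at chr12:50435597-50435620 on the plus strand of hg38. The coding strand is shown 5′ to 3′, and the capitals mark the 3 bases that pair with the PAM on the opposite strand, next to which Cas9 cuts.
LARP4 exon 5: CCTgatctaattcttgaagtgtta
The counts cover all exons, so they do not show the edited bases.

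The 4 libraries held between 38347615 and 100840544 counts, LARP4 null replicate 2 being the deepest, and 14142 genes had a mean of at least 64 counts and were tested. Levels are given as CPM, which puts counts on a common library size, after scaling by TMM, a method that sets the library scale from genes of middling change, and differences as log2 fold changes, LARP4 null minus WT, negative where LARP4 null cells were lower. Of the 9 HEK293 marker genes all were detected, with a summed level of 931 to 1056 CPM in the 4 libraries, of which VIM held 445 to 505. Markers of other cell types summed to at most 2.02 CPM for blood, 1.96 for endothelium, 0.266 for hepatocytes and 19.9 for fibroblasts, of which COL1A1 held up to 17.5, and CD3E, HBB and COL1A2 were at 0 in all 4 libraries.

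Before any result is read, the replicates have to be set side by side, because they did not behave alike along the chromosomes. Genes were placed in windows of 10 Mb, and in each of the 251 windows with at least 20 tested genes the median log2 difference of a library from the median of the 7 total inputs was taken, a step added after the values were seen. In LARP4 null replicate 1, 8 windows on chromosome 7 between 60 and 160 Mb had a median of -0.51 over 428 genes, while LARP4 null replicate 2 stood at 0.00 over the same genes. LARP4 null replicate 1 also had a median of -0.74 over 22 genes of chromosome 13 between 70 and 80 Mb. In LARP4 null replicate 2, the windows of chromosome 1 between 220 and 240 Mb lay at -0.47 and -0.43, and AKAP1 null replicate 1 was as low there, at -0.45 and -0.46. The 108 genes of chromosome 1 below 10 Mb stood at 0.27 in LARP4 null replicate 2 and at 0.00 in both WT libraries. In WT replicate 1, 489 genes in 12 windows of chromosome 6 had a median of -0.35 and 154 genes of chromosome 20 between 40 and 70 Mb a median of 0.31. In WT replicate 2, 314 genes of chromosome 15 between 50 and 100 Mb had a median of 0.32. Some stretches were shared by the replicate 2 libraries of both groups: chromosome 15 between 50 and 60 Mb stood at 0.39 in WT replicate 2 and 0.46 in LARP4 null replicate 2, and the 88 genes of chromosome 6 below 20 Mb at 0.30 and 0.27. On chromosome 3, windows between 60 and 120 Mb had a median of 0.20 in WT replicate 2 and 0.31 in LARP4 null replicate 2. These windows, those beyond 0.2 in at least 1 of the 4 libraries, number 37 and hold 1820 genes, 12.9% of those tested. The median standard error of a gene was 0.23 inside them and 0.16 outside. What sets the windows apart was not tested.

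**Figure D1:**
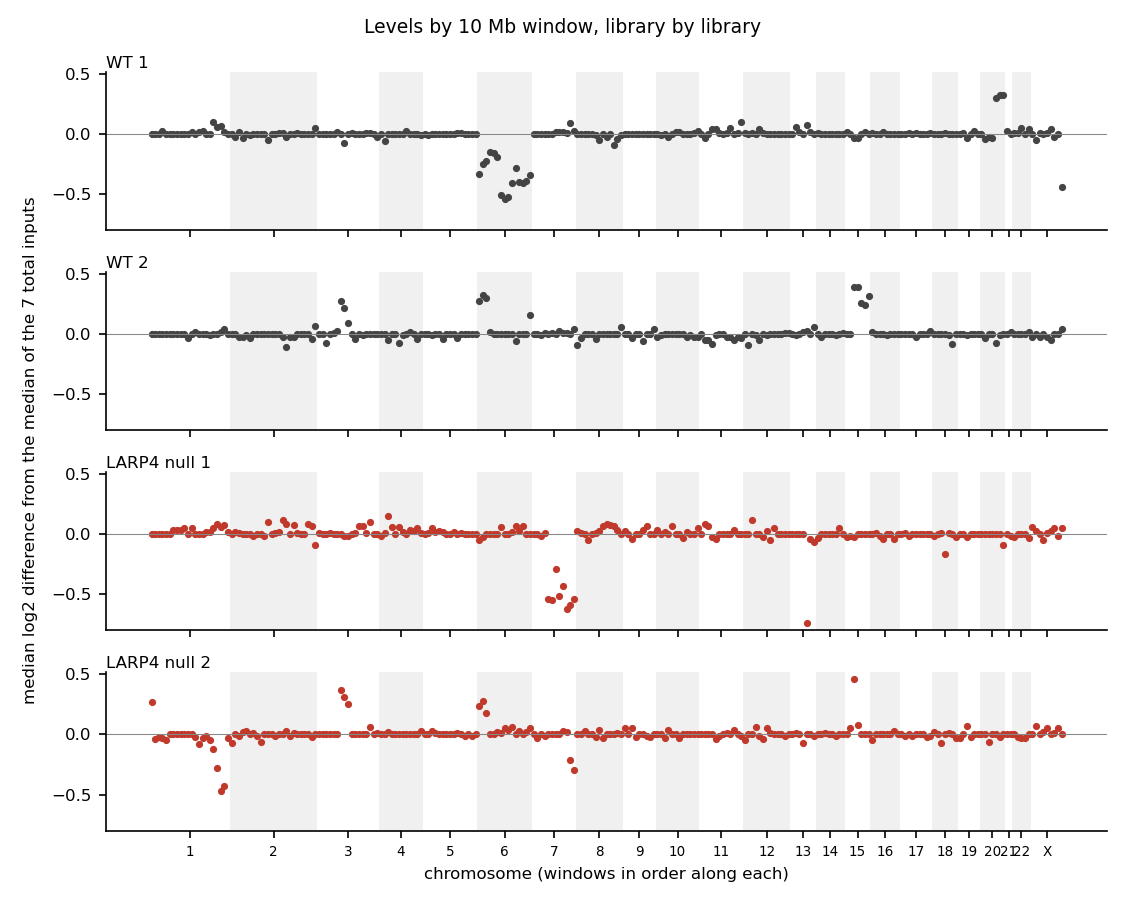
Each point is the median log2 difference of 1 library from the median of the 7 total inputs (y axis) over the tested genes of a 10 Mb window, with windows in order along the chromosomes (x axis, shaded alternately) and a panel for each of the 4 libraries. Most windows sit near 0, and the stretches that leave it are in part those of a single library and in part shared, among them chromosome 7 in LARP4 null 1, chromosome 1 in LARP4 null 2, and chromosome 6 in WT 1.

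LARP4 mRNA was present in the LARP4 null cells well below its WT level. It stood at 220 and 235 CPM in the WT libraries and at 79.9 and 74.9 CPM in the LARP4 null libraries. The groups did not overlap, and LARP4 was at 215 and 249 CPM in AKAP1 null cells and at 209 CPM without CHX, so both LARP4 null libraries lay below all the other total inputs. The mean was 228 ± 11.3 CPM in WT and 77.4 ± 3.49 CPM in LARP4 null cells (SD, n = 2 each), which is 34.0% of WT. Its log2 fold change was -1.56 (SE 0.11, 95% interval -1.83 to -1.28), with an adjusted p of 0.354 in edgeR's quasi-likelihood test and 7.4e-29 in DESeq2. The LARP4 call therefore depends on the tool, although the libraries of the groups lie far apart.

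No other La-related protein passed either test. LARP4B, the closest paralog of LARP4, was at 180 and 195 CPM in WT and 181 and 207 CPM in LARP4 null cells. LARP1, which binds the start of TOP mRNAs, was at 625 and 779 CPM in WT and 669 and 818 CPM in LARP4 null cells, so its replicates were farther apart than its groups. LARP1B stood at 65.8 and 70.4 against 68.2 and 76.5 CPM. The levels of LARP6, known for binding collagen mRNAs, were 28.8 and 27.5 against 26.6 and 27.4 CPM, and those of LARP7, which holds 7SK RNA, were 103 and 104 against 104 and 106 CPM. SSB, the La protein itself, was at 419 and 439 against 500 and 457 CPM. The log2 fold changes of these 6 genes ran from -0.06 (LARP6) to 0.16 (SSB), each with an adjusted p of 0.997 in edgeR, and the 95% interval of LARP4B was -0.26 to 0.36.

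**Figure D2:**
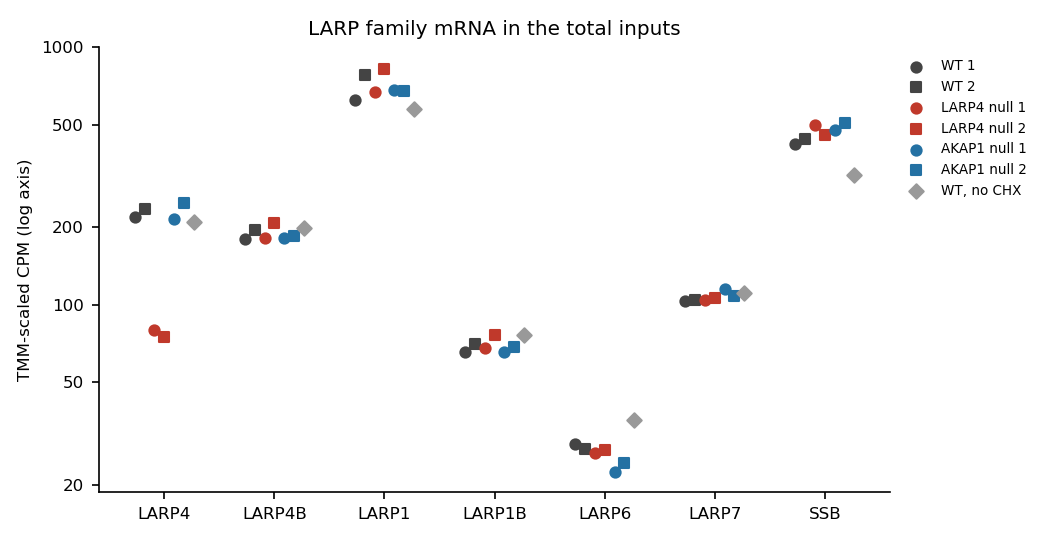
TMM-scaled CPM on a log axis (y) of the 7 LARP family genes (x) in each of the 7 total inputs, 1 point per library. The LARP4 null points of LARP4, at 79.9 and 74.9 CPM, lie far below its other 5 libraries, and those of the other genes lie among or close to theirs.

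Across the transcriptome, edgeR called no gene, 0 higher and 0 lower of 14142 (0%) at an adjusted p below 0.05. Without adjustment 348 genes, 2.46%, had p below 0.05, 154 of them higher and 194 lower in LARP4 null cells. The median log2 fold change of all tested genes was -0.00, the middle 90% of them lay between -0.37 and 0.40, and the median standard error was 0.17. DESeq2, which estimates the spread of each gene in another way, called 13 genes, 6 higher (0.0424% of those tested) and 7 lower (0.0495%). In 2064 genes (14.6%) both LARP4 null libraries lay above both WT libraries and in 2287 (16.2%) both lay below, which are the shares against which the gene lists have to be read. Of the 14142 genes, 97 had a log2 fold change above 1 and 23 one below -1. The groups did not overlap for 46 of the 97 higher and 15 of the 23 lower genes. Of the 46, both LARP4 null libraries exceeded all the other total inputs for 10, and for 22 it was the WT libraries that lay below all the others. With 2 libraries against 2, an exact permutation test of a single gene cannot give a p below 0.333.

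**Figure D3:**
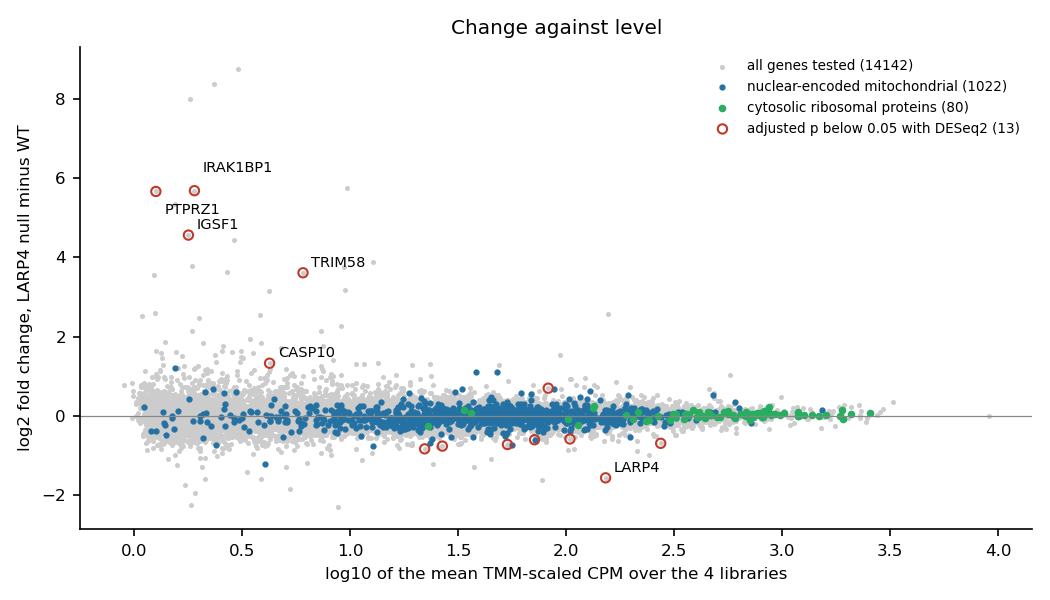
Log2 fold change, LARP4 null minus WT (y), against log10 of the mean TMM-scaled CPM over the 4 libraries (x) for the 14142 tested genes. The 80 cytosolic ribosomal protein genes (green) lie close to 0 with RPL22 the highest at 0.26, most of the 1022 mitochondrial genes (blue) lie near 0, and the 13 genes called by DESeq2 (red circles) include LARP4 at -1.56.

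The 13 genes were chosen after their values were seen, because the rule for naming genes rests on edgeR calls. The 6 higher genes are mostly genes that were nearly silent in WT cells. IRAK1BP1, PTPRZ1, TRIM58 and IGSF1 had fewer than 64 counts in each WT library. They passed the minimum mean of 64 counts only through the LARP4 null libraries, so such genes could only come out higher. IRAK1BP1, which encodes a binding protein of the signalling kinase IRAK1, had 2 and 4 counts in WT and 214 and 299 in LARP4 null cells, or 0.0509 and 0.0886 against 4.49 and 3 CPM. It stood at 2.86, 2.53 and 2.32 CPM in the AKAP1 null libraries and without CHX, so the 2 WT libraries with CHX were the ones apart. PTPRZ1, a receptor tyrosine phosphatase of the nervous system, had 0 and 4 counts in WT and 167 and 145 in LARP4 null cells. The groups of PTPRZ1 did not overlap, and AKAP1 null replicate 2 came near the lower LARP4 null library. TRIM58, a ubiquitin ligase known from red cell precursors, was at 1.32 and 0.51 CPM in WT and 17 and 5.43 CPM in LARP4 null cells, and AKAP1 null replicate 1, at 5.36 CPM, nearly reached the lower of these. IGSF1, an immunoglobulin superfamily membrane protein, was at 0.153 and 0.133 against 5.82 and 1.05 CPM, and AKAP1 null replicate 1, at 1.13 CPM, exceeded the lower LARP4 null library. CASP10, a caspase of death receptor signalling, was at 2.34 and 2.48 against 6.03 and 6.14 CPM, and AKAP1 null and no CHX libraries held 4.76 to 9.02 CPM. ALDH1A2, which makes retinoic acid from retinal, was the only one of the 6 at a substantial level, 60.7 and 65.0 CPM in WT and 107 and 98.2 CPM in LARP4 null cells, above every other total input, of which the highest held 86.1 CPM. Its log2 fold change was 0.70 (SE 0.11) and its DESeq2 adjusted p 0.00107. The 2 WT libraries of ALDH1A2 lay below all the others too, with AKAP1 null cells at 78.5 and 75.8 CPM.

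The 7 lower genes were expressed in all total inputs. Apart from LARP4 their log2 fold changes ran from -0.83 to -0.58. OLMALINC, a long non-coding RNA, was at 35.6 and 31.7 CPM in WT and 20.8 and 19 CPM in LARP4 null cells, with 31.3 to 35.8 CPM in the other total inputs. MRPS33, a protein of the small mitochondrial ribosomal subunit, was at 85.8 and 86.4 CPM in WT and at 53.8 and 60 CPM in LARP4 null cells, below the 78.9 to 89.9 CPM of the others. TMEM178B, a membrane protein gene next to MRPS33 on chromosome 7, was at 72.7 and 60.6 against 38.7 and 42.3 CPM. ZNF767P, a pseudogene farther along the same chromosome, was at 28.9 and 27.9 against 14.3 and 17.6 CPM, but without CHX it was at 16.9 CPM. SLAIN1, a microtubule plus-end protein, was at 123 and 127 against 78.8 and 88.3 CPM. KCTD12, an auxiliary subunit of GABA-B receptors, was at 357 and 320 against 190 and 230 CPM and also stood at 190 CPM without CHX. SLAIN1 and KCTD12 both lie in the stretch of chromosome 13 that was low in LARP4 null replicate 1, and of the 4 libraries that one held the least of both. Of the 13 genes 8 lie in windows that stand apart in at least 1 of the 4 libraries (ALDH1A2, IRAK1BP1, KCTD12, MRPS33, PTPRZ1, SLAIN1, TMEM178B and ZNF767P), and 5 do not (CASP10, IGSF1, LARP4, OLMALINC and TRIM58). The part of the windows in these calls was not tested. For 9 of the 13 genes both LARP4 null libraries lay outside the other 5 total inputs, and for 7 both WT libraries did.

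**Figure D4:**
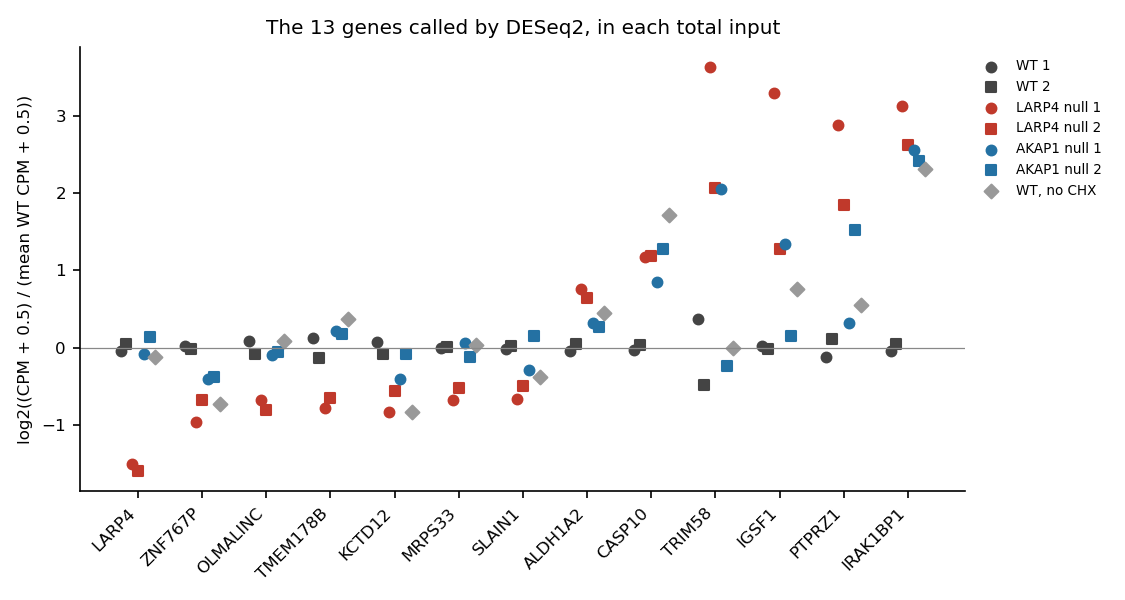
Log2 of CPM + 0.5 relative to the mean WT level + 0.5 (y) for the 13 genes called by DESeq2 (x), in each of the 7 total inputs, 1 point per library. For LARP4, OLMALINC, TMEM178B, MRPS33 and SLAIN1 both LARP4 null points are the lowest. For IRAK1BP1, PTPRZ1, IGSF1, CASP10 and ALDH1A2 the 2 WT points lie below all others, and for KCTD12 and ZNF767P above all others.

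mRNAs of the cytosolic ribosome were centred close to the transcriptome, and the LARP4 null replicates lay on opposite sides of WT. All 80 ribosomal protein genes were tested and none was called by edgeR or DESeq2. Their summed level was 51120 and 56062 CPM in WT and 62209 and 47543 CPM in LARP4 null cells, so LARP4 null replicate 1 was above both WT libraries and LARP4 null replicate 2 below both. The median log2 fold change was 0.03, beside -0.00 over all genes, with 57 positive and 23 negative values. Taken library by library, the median was 0.27 and 0.17 for LARP4 null replicate 1 minus the WT libraries and -0.13 and -0.26 for LARP4 null replicate 2. Only RPL22 lay above both WT libraries (125 and 121 against 150 and 145 CPM, log2 fold change 0.26) and only RPS28 below both (120 and 125 against 119 and 91.4 CPM, log2 fold change -0.22), 1.25% in each direction against 14.6% and 16.2% of all genes. RPL22 lies in a window that stands apart in at least 1 of the 4 libraries. Of the 72 genes outside such windows, 0 lay above both WT libraries and 1 below. By subunit, the medians were 0.03 for the 47 large and 0.03 for the 33 small subunit genes. RPL21 at -0.12 (232 and 255 against 245 and 205 CPM) was the lowest of the large subunit. RPS10 at 0.19 (112 and 138 against 168 and 118 CPM) was the highest of the small subunit, and for both genes the groups overlapped. RPL22L1, a paralog of RPL22 outside the list and named after its values were seen, was at 175 and 57.2 CPM in WT and 54.1 and 22.1 CPM in LARP4 null cells, and AKAP1 null cells held 46.9 and 47.0 CPM. WT replicate 1 was the highest and LARP4 null replicate 2 the lowest of the 7 total inputs, each well apart from the next. Ribosomal proteins have many processed pseudogenes, and how reads that fit both were counted is not given in the sources used here.

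Other TOP mRNAs and the translation machinery held no called gene. The 20 tested TOP mRNAs beyond the ribosomal proteins had a median of 0.05, with single pairings from -0.08 to 0.24. The highest was EEF1A1, the elongation factor that brings aminoacyl-tRNA, at 2251 and 3483 CPM in WT and 3923 and 3430 CPM in LARP4 null cells. This gene lies in the part of chromosome 6 where WT replicate 1 was low, and the other WT library lay between the LARP4 null libraries. The 45 genes of translation initiation and elongation had a median of 0.07, with 39 positive values and single pairings from -0.06 to 0.21. Above both WT libraries lay 6 (13.3%), against 14.6% of all genes. The 35 ribosome biogenesis genes had a median of 0.12 with 30 positive values. Of the 35, 14 (40%) lay above both WT libraries against 14.6% of all genes, and 3 above all 5 other total inputs. The list's summed level was 9433 and 10534 CPM in WT and 11149 and 10821 CPM in LARP4 null cells. It was 11477 and 11169 CPM in AKAP1 null cells and 8788 CPM without CHX. UTP20, a component of the small subunit processome, was at 208 and 220 CPM in WT and 250 and 294 CPM in LARP4 null cells, with 240 and 246 CPM in AKAP1 null cells. The ribosome biogenesis medians for the single pairings ran from -0.00 to 0.21, the smallest being LARP4 null replicate 2 minus WT replicate 2.

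In the list of poly(A) binding proteins and LARP4 partners, which leaves out LARP4 itself, no gene was called. PABPC1, the main cytoplasmic poly(A) binding protein and partner of LARP4, was at 1177 and 1488 CPM in WT and 1430 and 1421 CPM in LARP4 null cells, and PABPC4 at 219 and 253 against 235 and 245 CPM. AKAP1 had the highest log2 fold change of this list, 0.18 (SE 0.13), at 112 and 122 CPM in WT and 121 and 144 CPM in LARP4 null cells, and it stood at 32.0 and 20.4 CPM in the AKAP1 null libraries. RACK1, a ribosomal scaffold that LARP4 also contacts, was at 1718 and 1883 against 2224 and 1770 CPM. The lowest was PABPC1L, a poly(A) binding protein of oocytes, at 22.7 and 14.8 against 13.3 and 12.2 CPM. The 10 tested of 12 list members had a median of 0.06. Of the 10, 2 (20%) lay above both WT libraries and 2 (20%) below, against 14.6% and 16.2% of all genes.

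The deadenylases and their regulators, which remove poly(A) tails, had a median of -0.02 over 23 tested of 24 genes. Above both WT libraries lay 4 (17.4%) and below both 4 (17.4%), against 14.6% and 16.2% of all genes. CNOT1, the scaffold of the CCR4-NOT complex, was at 789 and 766 CPM in WT and 798 and 869 CPM in LARP4 null cells, and its nucleases CNOT7 (166 and 180 against 178 and 159 CPM) and CNOT6L (81.5 and 91.3 against 81.6 and 91.4 CPM) overlapped between groups. CNOT3, a further subunit of that complex, was the lowest, at 97.3 and 97.9 against 76.8 and 64.5 CPM, a log2 fold change of -0.47 (SE 0.12) with an adjusted p of 0.997 in edgeR and 0.65 in DESeq2. BTG2, which recruits CCR4-NOT to mRNA, was the highest, at 18 and 19.6 against 25.7 and 21.6 CPM. The 40 genes of decapping and decay had a median of -0.06, with 11 (27.5%) below both WT libraries and 3 above. LSM4, of the ring that binds shortened tails, was at 157 and 148 CPM in WT and 124 and 124 CPM in LARP4 null cells. None of these lists held a called gene.

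Nuclear-encoded mitochondrial mRNAs were centred where the transcriptome was. Of 1056 such genes 1022 were tested, and their median log2 fold change was -0.01, with 470 positive and 552 negative values. Both LARP4 null libraries lay above both WT libraries in 147 (14.4%) and below in 178 (17.4%), close to the 14.6% and 16.2% of all genes. Without adjustment p was below 0.05 for 12 higher and 18 lower genes, beside 2.46% of all genes. Their summed level hardly differed, 71809 and 74283 CPM in WT and 74236 and 73295 CPM in LARP4 null cells. MRPS33, described above, was the only one that DESeq2 called. The extremes were genes of low level. DHRS2, a dehydrogenase, had scattered WT replicates, at 8.40 and 2.92 against 2.86 and 2.01 CPM (log2 fold change -1.22, SE 0.55). ACSM3, an acyl-CoA synthetase, was at 1.04 and 0.82 against 2.56 and 1.79 CPM (log2 fold change 1.22, SE 0.34). With 41 and 37 counts in WT, ACSM3 passed the 64-count minimum only through the LARP4 null libraries, which held 122 and 178. CPS1, which makes carbamoyl phosphate for the urea cycle, was at 21.8 and 26.8 against 31.7 and 72.8 CPM, with 70.5 CPM without CHX. By compartment, the medians were 0.01 for 355 matrix genes, -0.05 for 208 inner membrane genes, 0.00 for 58 outer membrane genes and -0.02 for 39 intermembrane space genes. The 13 protein-coding genes of the mitochondrial genome are listed at 0 in all 7 total inputs, as are all its 37 genes, the rRNAs included, so their levels cannot be given.

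Subunits of oxidative phosphorylation lay a little below 0. The median over 81 tested genes was -0.07, 60 of them negative. Of the 81, 20 (24.7%) lay below both WT libraries against 16.2% of all genes, and 6 (7.41%) above. The paper describes these subunits as mostly short proteins. Among the 1230 non-mitochondrial genes encoding proteins of under 200 amino acids (aa), 25% lay below both WT libraries, with a median of -0.06. For LARP4 null replicate 1 the list's median was 0.00 and -0.01 against the WT libraries, and for LARP4 null replicate 2 it was -0.11 and -0.19. Complex I had a median of -0.07 over 37 genes with 13 (35.1%) below both WT libraries. NDUFC1, an accessory subunit of complex I, was at 48.4 and 49.5 CPM in WT and 39.3 and 38.4 CPM in LARP4 null cells, and without CHX at 39.1 CPM. NDUFB1, another, was at 70.7 and 69.9 against 59.9 and 55.9 CPM. NDUFB2 had the lowest log2 fold change of the complex, -0.50 (SE 0.19), at 61.8 and 60.1 against 35.4 and 50.7 CPM, and NDUFS4 the highest, 0.24 (SE 0.29). The medians of complexes II and III, complex IV and ATP synthase were -0.05, -0.07 and -0.07, with extremes at UQCR10 (-0.31), UQCRC1 (0.18), COX8A (-0.23), COX7A2 (0.13), ATP5ME (-0.23) and ATP5F1D (0.15). Mitochondrial ribosomal proteins had a median of -0.02 over 81 genes, where MRPL55 at -0.45 and MRPS33 at -0.60 were the lowest of their subunits and MRPS30 at 0.23 and MRPS31 at 0.18 the highest. No gene of these complexes other than MRPS33 was called by either tool.

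**Figure D5:**
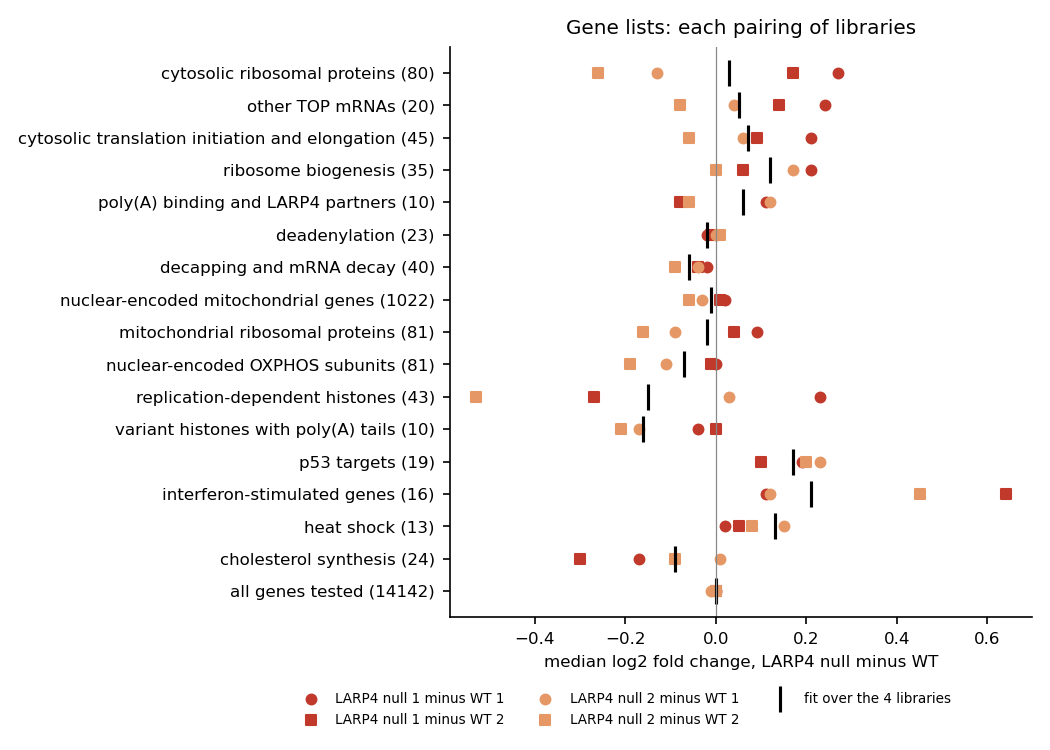
Median log2 fold change (x) of the gene lists (y, with the number of tested genes) for each of the 4 pairings of a LARP4 null with a WT library (coloured points) and for the fit over the 4 libraries (black bars). The cytosolic ribosomal proteins spread from -0.26 to 0.27 around a bar at 0.03, whereas the mitochondrial genes stay between -0.06 and 0.02 and the p53 targets between 0.10 and 0.23.

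Medians were lower for genes encoding short proteins than for those encoding long ones, among mitochondrial and among other genes. Mitochondrial genes encoding proteins of under 200 aa had a median of -0.07, those of 200 to 400 aa a median of -0.03 (402 genes) and those of over 400 aa a median of 0.06 (363 genes). The same classes among other protein-coding genes had medians of -0.06 (1230), -0.02 (2952) and 0.04 (6983). Both LARP4 null libraries lay below both WT libraries in 28.5% of the short mitochondrial genes and 25% of the other short genes, and in 8.82% and 11.7% of the long ones. The pattern was carried by LARP4 null replicate 2, for which the short mitochondrial genes had medians of -0.13 and -0.19 against the WT libraries, compared with 0.03 and -0.03 for LARP4 null replicate 1. Among the long mitochondrial genes LARP4 null replicate 2 stood at 0.09 and 0.09 and LARP4 null replicate 1 at 0.02 and 0.02. A trend with the length of the RNA was visible within the LARP4 null group too, where replicate 1 minus replicate 2 had a median of 0.10 in the 2829 genes of shortest exonic length and -0.08 in the 2829 of longest. What this trend rests on was not tested.

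The far end of chromosome 7 held the only windows of the 251 that were below -0.2 in both LARP4 null libraries, with every other total input at -0.10 or above there, and it holds several mitochondrial genes. It was chosen after the values were seen. From 140 Mb onward 97 genes were tested, with a median log2 fold change of -0.50. Of the 97, 72 (74.2%) lay below both WT libraries, beside 16.2% of all genes. Below all 5 other total inputs lay 41, beside 3.72% of all genes. The stretch was chosen for its low levels in both LARP4 null libraries, so these counts largely follow from the choice. The summed level of the 97 genes was 6711 and 6604 CPM in WT and 4117 and 5518 CPM in LARP4 null cells. It was 6958 and 6696 CPM in AKAP1 null cells and 5878 CPM without CHX. In the windows starting at 130, 140 and 150 Mb, LARP4 null replicate 2 stood at 0.02, -0.21 and -0.30, while LARP4 null replicate 1 was at -0.62, -0.59 and -0.54. The reverse pattern, both LARP4 null libraries above the 5 others, was found for 499 genes in all (3.53%). For the stretch it was found for 0 genes, which follows largely from the choice as well.

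Of the mitochondrial genes, 10 lie on chromosome 7 beyond 130 Mb, and their median was -0.57 against -0.01 for the 1012 elsewhere. Most of the 10 lie in the stretch chosen for its low levels, so this difference largely follows from that choice. Of the 10, 9 lay below both WT libraries and 8 below all 5 others, beside 16.2% and 3.72% of all genes. SSBP1, the single-stranded DNA binding protein of the mitochondrial genome, was at 222 and 249 CPM in WT and at 161 and 162 CPM in LARP4 null cells. FASTK, an RNA binding protein of mitochondria, was at 30.7 and 27.1 against 18.6 and 17.6 CPM, and FMC1, an assembly factor of ATP synthase, at 17 and 15.2 against 8.88 and 10 CPM. GSTK1, a glutathione transferase, was at 69.9 and 70.2 against 33.5 and 51.2 CPM. AGK, a lipid kinase of the inner membrane, was at 118 and 119 against 81.8 and 99.4 CPM. MRPS33 and NDUFB2, the lowest members of their lists, also lie there. The exception was ADCK2, at 49.4 and 50.9 against 27.8 and 49.7 CPM, where LARP4 null replicate 2 was within the WT range. With 1 clone, the genotype and a state of this stretch particular to the clone cannot be told apart.

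Among lists of signalling and stress, p53 targets, interferon-stimulated genes and heat shock genes had medians above 0 in every pairing. The median of the 19 tested of 20 p53 targets was 0.17, between 0.10 and 0.23 in the 4 pairings, with 16 positive values. Above both WT libraries lay 8 (42.1%) and below both 0, against 14.6% and 16.2% of all genes. None of the 19, 0, lay above all 5 other total inputs. ZMAT3, an RNA binding protein and p53 target, was at 36.0 and 43.8 CPM in WT and 62.0 and 52.6 CPM in LARP4 null cells, and RRM2B, a subunit of ribonucleotide reductase, at 61.7 and 61.2 against 69.7 and 69.6 CPM. CDKN1A, the cell cycle inhibitor p21, overlapped at 25.5 and 25 against 22.9 and 33.0 CPM, and MDM2, the ligase of p53, at 399 and 347 against 367 and 375 CPM. None was called by edgeR or DESeq2, and without CHX the list's summed level was 1753 CPM against 893 to 973 CPM in the 4 libraries.

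Interferon-stimulated genes had a median of 0.21 over the 16 of 30 that could be tested. Above both WT libraries lay 6 (37.5%) and below both 0, against 14.6% and 16.2% of all genes. None of the 16, 0, lay above all 5 other total inputs. The single pairings ran from 0.11 to 0.64, the higher values being those against WT replicate 2. IFIH1, the sensor of double-stranded RNA, was the highest, at 1.02 and 0.355 against 4.54 and 1.55 CPM. With 40 and 16 counts in WT, IFIH1 passed the 64-count minimum only through the LARP4 null libraries, which held 216 and 154. OAS3 was the lowest, at 16.3 and 0.244 CPM in the WT replicates. The 33 tested genes of extracellular matrix and adhesion had a median of 0.17, with single pairings from -0.11 to 0.52. Of the 33, 8 (24.2%) lay above both WT libraries and 2 (6.06%) below, beside the same shares of all genes. Above all 5 other total inputs lay 4. Among the 8 were the collagen IV chain COL4A2 (27.4 and 49.0 against 68.3 and 71.6 CPM), and the integrins ITGA2 (29.3 and 31.1 against 40.8 and 44.6 CPM) and ITGA4 (16.1 and 11 against 45.2 and 21.5 CPM). The 24 tested genes of cholesterol synthesis had a median of -0.09, and INSIG1, the sterol sensor of the list, which lies at the far end of chromosome 7, was at 189 and 234 against 109 and 162 CPM. The 13 heat shock genes had a median of 0.13, with single pairings from 0.02 to 0.15. Of the 13, 6 (46.2%) lay above both WT libraries and 1 (7.69%) below, against 14.6% and 16.2% of all genes. Above all 5 other total inputs lay 0 of them. The list's summed level was 9990 and 10901 CPM in WT and 12000 and 11730 CPM in LARP4 null cells. It was 13516 and 13205 CPM in AKAP1 null cells and 6159 CPM without CHX. The 32 genes of the integrated stress response had a median of -0.05.

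Histone mRNAs offer a contrast, since replication-dependent histone mRNAs end in a stem-loop and carry no poly(A) tail, while variant histone mRNAs are polyadenylated. The 43 tested replication-dependent genes had a median of -0.15, with a range of -0.53 to 0.23 over the pairings. Of the 43, 5 (11.6%) lay below both WT libraries, and 37 lie in windows that stand apart in a library. Over the 6 outside these windows the median was -0.33, with 4 below both WT libraries. The list's summed level was 11093 and 15935 CPM in WT and 12548 and 11273 CPM in LARP4 null cells, so the WT libraries enclosed the LARP4 null ones. The 10 variant histone genes had a median of -0.16, also -0.16 over the 9 outside such windows. The 10 genes ran from -0.88 to 1.84, with 1 positive and 9 negative values. Of the 10, 5 (50%) lay below both WT libraries against 16.2% of all genes. H1-10, a linker histone, was at 128 and 123 against 100 and 91.2 CPM, and H2AZ2, an H2A variant, at 329 and 356 against 273 and 295 CPM. No gene of either list was called.

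Lists of cell growth lay close to 0 as well. The medians were 0.04 for 32 proteasome genes, 0.08 for 21 glycolysis genes, -0.03 for 31 DNA replication genes, 0.06 for 23 mitosis genes, 0.09 for 20 genes of the ER unfolded protein response, -0.00 for 24 immediate early genes and 0.01 for 17 AU-rich element and short-lived mRNA binding proteins, with no called gene. By kind of RNA, 12186 protein-coding genes had a median of 0.01 and 1312 lncRNA genes a median of -0.08. By GC content of the longest transcript, the median was 0.03 in the 2826 genes of lowest content and -0.05 in the 2826 of highest. In bulk RNA a lower level of an mRNA in each cell and fewer cells that express it cannot be told apart.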

How the data were processed

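RNA-seq total inputs of LARP4 null (2) and WT cells (2) were compared. The authors aligned read pairs to GRCh38 with STAR, counted them per gene with featureCounts and deposited a count for each of 60663 genes, with an exonic length and a column headed FPKM. The values the authors deposited there are 10 times what counts and lengths give, so they were recorded as a score and not used. The labels state polyA RNA and name Bowtie, whereas the methods name rRNA depletion. RN7SL1 held the most counts in each library. Replication-dependent histone mRNAs, which carry no poly(A) tail, summed to between 11093 and 15935 CPM in the 4 libraries. How the RNA was selected was not tested. From 3 to 7 broken lines per file were left out. GENCODE gave symbols for 60462 identifiers. Totals ran from 38347615 to 100840544 counts.

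Genes with a mean of at least 64 counts were tested with edgeR 4.0.16 (quasi-likelihood, TMM, no replicate block, two-sided, Benjamini-Hochberg) in R 4.3.3. DESeq2 1.42.0 served as an alternative. The edgeR test was also run on simulated counts, drawn independently for each gene. That run held no shifts along chromosomes, so it cannot show how the test behaves where they occur. SEs are the log2 fold change over the square root of F. Log2 CPM for pairings had a prior count of 2, and window levels a pseudocount of 0.5 CPM. Tables were made in Python 3.11.15 with pandas 2.3.3, and figures with matplotlib 3.10.9. Mitochondrial genes and compartments are those named in the study's supplementary sheets, of which 7 names had no identifier.

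The genes to be named were the LARP family, the 10 largest rises and falls and up to 4 genes per list at an adjusted p below 0.05 (edgeR gave none), and the highest and lowest of the ribosomal, mitochondrial, poly(A) and deadenylation lists. A gene that this rule names is not reported here. All others were chosen after their values were seen. Members and lists were chosen with earlier results of these data known. Pulldown and ribosome profiling libraries are not analysed here.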

Additional observations from a re-analysis of the deposited data

How the results depend on the processing

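Counts of called genes depended on the method. The 0 higher and 0 lower genes stayed at 0 with DESeq2 size factors, library totals, a looser or stricter count minimum and protein-coding genes only. A log2 limit of 1 on top of the adjusted p could only give 0 again. The counts became 6 and 1 with no filter on low counts, 1 and 1 with the 6 total inputs with CHX, and 6 and 7 with the DESeq2 test. The LARP4 log2 fold change passed the threshold under the same 3 settings, at -1.54 without the filter (adjusted p 2.97e-05 in edgeR), -1.56 with 6 total inputs (0.0417) and -1.55 in DESeq2 (7.4e-29), and kept its sign under all, between -1.61 and -1.50 with a library left out. Numbers shared between groups mark no common culture in the labels. Across genes, replicate 1 minus 2 correlated at 0.352 between WT and LARP4 null, at 0.199 between WT and AKAP1 null and at -0.0423 between LARP4 null and AKAP1 null. With the replicate block 0 and 0 genes were called, 662 had p below 0.05, LARP4 was -1.56 (adjusted p 0.0534 in edgeR), and the ribosomal protein and mitochondrial medians were 0.02 and -0.02. The block with 6 total inputs, added after seeing the data, also gave 0 and 0. The ribosomal protein median lay between -0.20 (without LARP4 null replicate 1) and 0.22 (without LARP4 null replicate 2), so either library decides its sign, and the mitochondrial one between -0.04 and 0.01. Outside the windows that stand apart, an alternative also added later, they were 0.03 and -0.01. Over all lists, 594 alternative medians moved by less than the SD over the 4 pairings and 21 by more, none of them a called result. Among 38 named genes other than LARP4, 9 alternative values changed sign, all with 1 library left out and none called. Over the libraries left out, the log2 fold change of LARP4B ran from -0.05 to 0.15, LARP1 from -0.07 to 0.26, RPL21 from -0.24 to 0.01, RPS10 from -0.08 to 0.42, NDUFS4 from -0.11 to 0.72 and COX7A2 from -0.09 to 0.41. With 2 libraries a group and a median SE of 0.17 on the log2 scale, a single gene's difference of the size of most list medians was not detectable.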
